A study of Mus musculus with 11 samples.

Results

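Transcript levels of 57 genes that build the mitotic spindle, attach chromosomes to it, time their separation and divide the cell were compared between neural progenitor cells with an induced deletion of Smg6 and 2 groups of control cells. The genes were taken as a listed set of mitosis genes, matched by symbol to their Ensembl identifiers, and are 57 of the 53801 genes counted. Against untreated control cells every one of them had a lower fitted level and 52 were called lower, where 4.98% of all genes tested were. Against 4-OHT-treated control cells 56 of 57 had a lower fitted level, Pttg1 being the exception, and 5 were called lower, where 0.416% of all genes tested were. The median difference was -0.41 on the log2 scale against the first control and -0.36 against the second, and no member was called higher in either comparison. The 57 genes were grouped by function into kinetochore genes (11), checkpoint and sister separation genes (11), mitotic kinases with the passenger complex and CDC25 phosphatases (11), mitotic kinesins (11), cytokinesis genes (5) and spindle assembly and mitotic chromosome genes (8).

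RNA was sequenced from neurosphere cultures of neural progenitor cells (NPCs) prepared from E13.5 mouse brains on a mixed C57BL/6 and 129SV background, in 11 libraries. Every group carried the floxed Smg6 alleles (Smg6 Flox/Flox). Embryos are named as in the sample labels. Control cells (Ctr, n = 3, embryos SMH_128, SMH_132 and SMH_133) had the RosaCreER transgene (tg/+) and were not treated. Ctr + 4-OHT cells (n = 4, embryos SMH_125, SMH_126, SMH_129 and SMH_131) had no RosaCreER transgene (+/+) and received 4-hydroxytamoxifen (4-OHT), the ligand that activates CreER. Smg6-iKO cells (n = 4, embryos SMH_127, SMH_128, SMH_132 and SMH_133) had RosaCreER (tg/+) and received 4-OHT at 1 µM for 3 days. RNA was isolated 6 days after the start of treatment. Embryos SMH_128, SMH_132 and SMH_133 thus gave cells to both the Ctr and the Smg6-iKO group. RosaCreER is driven by a ubiquitous promoter, so the deletion was not limited to one cell type of the culture. No group held activated CreER without floxed Smg6, so activation of CreER and loss of Smg6 cannot be told apart here. SMG6 is an endonuclease of nonsense-mediated mRNA decay, the pathway that degrades transcripts with a premature stop codon.

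In mitosis, microtubules of the spindle bind each chromosome at its kinetochore, a layered protein complex built on the centromere. The spindle assembly checkpoint holds back the anaphase-promoting complex until all kinetochores are attached. Separase then cuts the cohesin that joins sister chromatids, and the central spindle and contractile ring divide the cell. Most genes of these machines are transcribed periodically and peak in G2 and M phase, and in the embryonic brain they mark the dividing progenitors of the ventricular zones. Many of their promoters carry a cell cycle genes homology region (CHR, TTTGAA or TTCGAA) next to CCAAT boxes, elements bound by the MuvB-containing complexes and by NF-Y.

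The promoters of 8 members, none of them from the class of mitotic kinases, are printed here because the CHR and the CCAAT box are more frequent among these genes than among all genes, with windows that hold neither shown beside windows that do. RefSeq windows (GRCm38.p6) were used for 48 of the 57 genes, and Spc24, Ska1, Aurkb, Pbk, Incenp, Cdc25c, Kif20a, Tpx2 and Dlgap5 were without one. Each sequence below runs 5′ to 3′ along the gene, from 170 bases before the annotated start to 30 bases after it. Capitals mark a CHR, a CCAAT box or an E2F-like motif read on either strand. Nuf2, Cenpn, Kif4 and Mki67 are among the 5 genes that passed the test against Ctr + 4-OHT. Cdc20 and Racgap1 stand for other classes, Top2a is of the same class as Mki67, and Pttg1 is the member whose level differed in pattern from the rest.
Cenpn (chr8:116921570-116921769, plus strand): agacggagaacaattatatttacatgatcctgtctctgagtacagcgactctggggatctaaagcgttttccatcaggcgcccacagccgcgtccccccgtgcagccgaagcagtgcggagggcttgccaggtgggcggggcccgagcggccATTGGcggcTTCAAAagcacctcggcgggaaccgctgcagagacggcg
Kif4 (chrX:100625895-100626094, plus strand): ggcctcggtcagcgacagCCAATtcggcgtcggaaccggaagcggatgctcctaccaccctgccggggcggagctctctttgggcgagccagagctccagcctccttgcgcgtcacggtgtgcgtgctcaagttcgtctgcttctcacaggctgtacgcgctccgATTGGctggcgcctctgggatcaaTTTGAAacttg
Mki67 (chr7:135716350-135716549, minus strand): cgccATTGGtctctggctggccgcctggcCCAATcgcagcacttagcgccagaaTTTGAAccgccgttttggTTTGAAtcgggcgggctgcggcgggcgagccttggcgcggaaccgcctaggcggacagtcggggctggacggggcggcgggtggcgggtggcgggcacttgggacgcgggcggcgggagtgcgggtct
Cdc20 (chr4:118437314-118437513, minus strand): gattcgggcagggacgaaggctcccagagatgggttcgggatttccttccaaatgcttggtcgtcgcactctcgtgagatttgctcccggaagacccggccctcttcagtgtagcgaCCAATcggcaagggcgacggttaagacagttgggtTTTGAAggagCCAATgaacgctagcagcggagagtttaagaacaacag
Top2a (chr11:99024160-99024359, minus strand): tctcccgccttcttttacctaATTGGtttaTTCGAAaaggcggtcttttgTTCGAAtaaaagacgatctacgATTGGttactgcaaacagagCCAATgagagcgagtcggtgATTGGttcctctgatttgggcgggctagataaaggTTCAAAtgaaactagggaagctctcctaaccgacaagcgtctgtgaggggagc
Racgap1 (chr15:99651627-99651826, minus strand): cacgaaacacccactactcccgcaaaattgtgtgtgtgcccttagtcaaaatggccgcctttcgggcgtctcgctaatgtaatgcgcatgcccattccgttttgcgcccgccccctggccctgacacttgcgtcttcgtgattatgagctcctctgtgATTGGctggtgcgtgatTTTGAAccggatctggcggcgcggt
Nuf2 (chr1:169531435-169531634, minus strand): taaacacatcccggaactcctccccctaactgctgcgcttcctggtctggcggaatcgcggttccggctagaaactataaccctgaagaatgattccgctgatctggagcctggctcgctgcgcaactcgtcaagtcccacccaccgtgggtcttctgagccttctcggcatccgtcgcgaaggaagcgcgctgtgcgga
Pttg1 (chr11:43425952-43426151, minus strand): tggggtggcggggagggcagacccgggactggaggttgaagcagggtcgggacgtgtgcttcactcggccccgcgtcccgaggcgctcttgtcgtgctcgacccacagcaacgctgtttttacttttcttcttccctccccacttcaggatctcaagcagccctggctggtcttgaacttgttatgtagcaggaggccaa

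In the full windows of 300 bases (250 before and 50 after the start), a CHR was present in 36 of the 48 genes (in any window of a gene), or 75.0%, against 21.7% of all 27025 genes with a window and 16.0% of 10868 protein-coding genes tested. The search used TTTGAA and TTCGAA on both strands. A CHR can share a base with a reverse CCAAT box. A CHR that began between 100 bases before and 50 bases after the start was present in 72.9% of the 48 genes and in 9.87% of all genes with a window. A CCAAT box on either strand was present in 70.8% of the 48 genes and 41.1% of all, and CHR and CCAAT occurred together in 60.4% and 8.61%. An E2F-like motif (TTTCCCGC, TTTGGCGC, TTTCGCGC or TTTGCCGC) was found in 2 of the 48, Kif15 and Kif18a, or 4.17% against 2.61% of all genes with a window and 4.60% of the protein-coding genes tested. These shares describe letters and carry no test. The 36 genes with a CHR had log2 fold changes from -0.45 to -0.21 against Ctr + 4-OHT (median -0.36, 3 called lower), and the 12 without one from -0.47 to 0.07 (median -0.37, 1 called lower). The 3 smallest differences among the 48 were those of Pttg1, Cenpk and Gtse1, which had no CHR. Against Ctr the medians were -0.40 and -0.39, and 35 of the 36 and 9 of the 12 were called lower. The difference between genes with and without a CHR was not tested. Of the printed windows, Nuf2 and Pttg1 had no motif in capitals, and Nuf2 fell against both controls while Pttg1 passed in neither comparison without the embryo block.

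Library totals were between 26418249 and 33756875 counts, and the lowest count of any member in any library was 244, for Ska1. All 57 members passed the filter on low counts in each comparison. Levels below are CPM, the counts of a gene scaled to 1 M counts of its library after TMM scaling. Whole-gene counts of Smg6 were 69.4, 79.4 and 74.3 CPM in Ctr, 66.5, 72.0, 72.3 and 66.6 CPM in Ctr + 4-OHT and 62.5, 62.3, 71.9 and 67.5 CPM in Smg6-iKO. The groups overlapped, and whole-gene counts include exons outside the deleted part, so they do not check the deletion. Markers of neural progenitors (12 of 12) and of neurons (11 of 11) were kept by the filter, whereas 8 of 8 microglial and 7 of 7 erythroid markers were under 1 CPM in every library. Bulk RNA cannot tell fewer mitotic cells from less mitotic RNA per cell.

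The members as a set took up a smaller part of the RNA in Smg6-iKO cells. They held 0.561% ± 0.036 (SD, n = 4) of all counts in Smg6-iKO libraries, with a range of 0.533 to 0.612%. The share was 0.715% ± 0.077 (SD, n = 4, range 0.654 to 0.827%) for Ctr + 4-OHT and 0.731% ± 0.017 (SD, n = 3, range 0.713 to 0.747%) for Ctr. The mean log2 CPM over the members was 6.5, 6.48 and 6.42 in the Ctr libraries of embryos SMH_128, SMH_132 and SMH_133. It was 6.27, 6.41, 6.64 and 6.33 in the Ctr + 4-OHT libraries of embryos SMH_125, SMH_126, SMH_129 and SMH_131. In the Smg6-iKO libraries of embryos SMH_127, SMH_128, SMH_132 and SMH_133 it was 5.98, 6.20, 6.05 and 6.02. All 4 Smg6-iKO libraries were below all 7 control libraries, with embryo SMH_128 the highest of the 4 and embryo SMH_129 the highest of the controls.

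**Figure D1:**
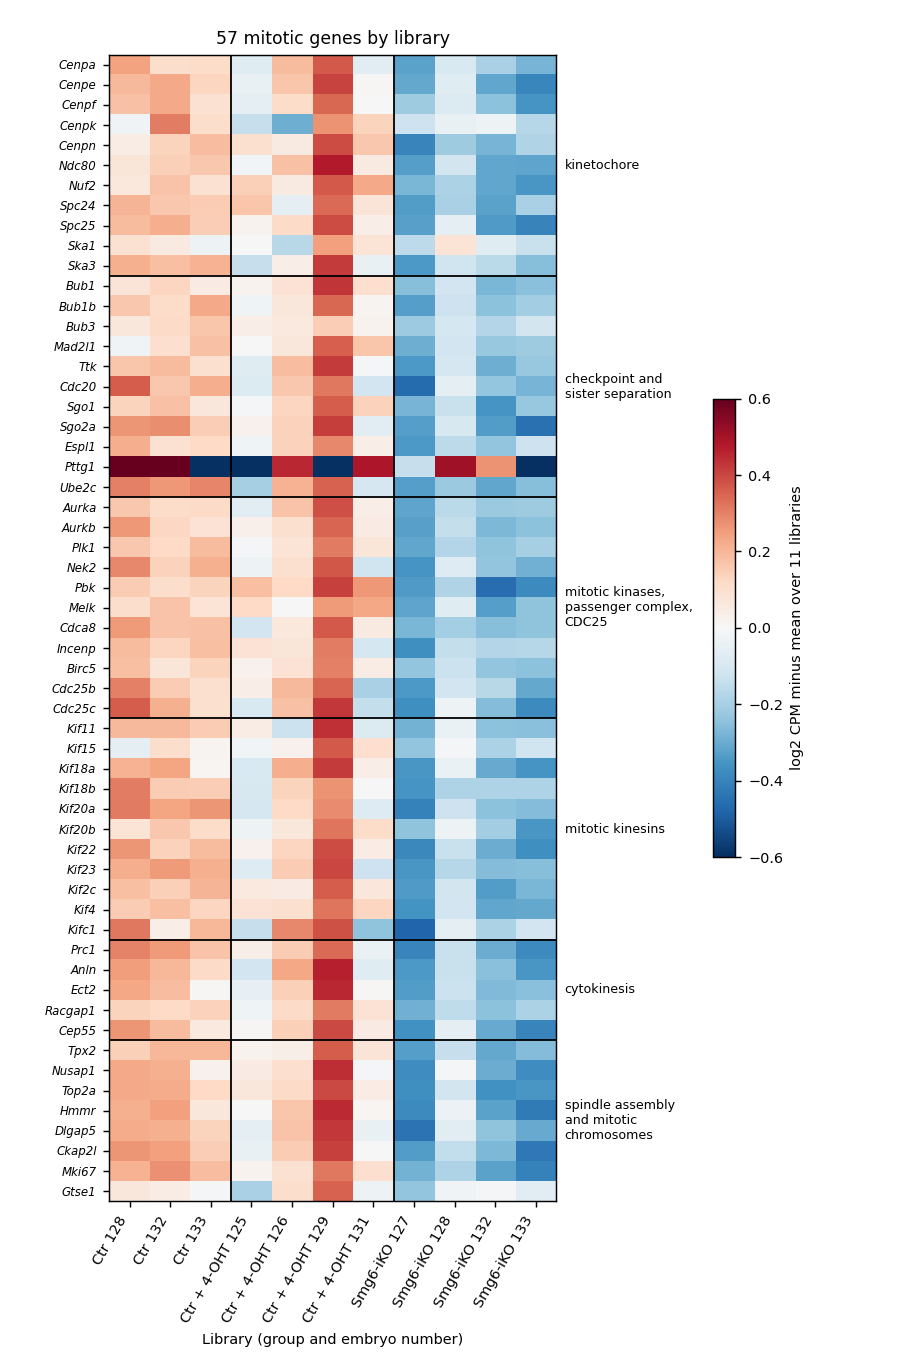
log2 CPM of each of the 57 genes (rows, by functional class) in each of the 11 libraries (columns, by group and embryo), less the gene's mean over the 11 libraries; red is above and blue below that mean, and the colour stops at 0.6 on either side, which the values of Pttg1 exceed. The Smg6-iKO columns are blue for nearly all genes, the column of Ctr + 4-OHT embryo SMH_129 is the reddest, and the row of Pttg1 varies within each group.

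Against Ctr + 4-OHT, which shares the drug treatment with Smg6-iKO but differs in the Cre transgene and the embryos, 5 members were called lower by edgeR's quasi-likelihood test at an adjusted p under 0.05 and 0 were called higher. Among all 17558 genes tested, 0.416% were called lower. At an unadjusted p under 0.05, 52 of the 57 were lower and 0 higher, while 7.67% of all genes were lower at that level. The Wald test of DESeq2 called 45 of the 57 lower, where it called 3.39% of the 14401 genes to which it gave an adjusted p. That test also used other size factors and another filter. With DESeq2 size factors in edgeR 8 were called (0.473% of all genes), with no filter on low counts 38 (0.510% of all genes) and with limma-voom 5 (0.382% of all genes). The fitted median was -0.36 with edgeR and -0.37 with DESeq2. The median over all genes tested was 0.01. The edgeR count also rested on single libraries, falling to 1 without Ctr + 4-OHT embryo SMH_131 or without Smg6-iKO embryo SMH_127, SMH_132 or SMH_133 and rising to 7 without Smg6-iKO embryo SMH_128.

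The 5 genes called against the treated controls lie on 4 autosomes and the X chromosome. In the coordinates of the deposited annotation (Ensembl 92, GRCm38) they are Pbk (ENSMUSG00000022033, chr14:65805837-65817822, plus strand), Nuf2 (ENSMUSG00000026683, chr1:169497934-169531464, minus strand), Kif4 (ENSMUSG00000034311, chrX:100625737-100727214, plus strand), Mki67 (ENSMUSG00000031004, chr7:135689784-135716361, minus strand) and Cenpn (ENSMUSG00000031756, chr8:116921730-116941507, plus strand).

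Against Ctr, which shares 3 embryos and the Cre transgene with Smg6-iKO but differs in the drug, 52 members were called lower and 0 higher, where 4.98% of all 17974 genes tested were called lower. The 5 members not called were Pttg1, Cenpk, Ska1, Kif15 and Gtse1. With the embryo as a block, 53 were called lower, where 11.2% of all genes were, and Pttg1 joined the list (log2 fold change -0.31 ± 0.07 (SE), adjusted p = 0.00562). The block left Cenpk (0.095), Ska1 (0.573), Kif15 (0.133) and Gtse1 (0.355) above the adjusted p of 0.05. Because both comparisons use the same 4 Smg6-iKO libraries, their values are not independent of each other.

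Counted by libraries, 44 of the 57 genes had every Smg6-iKO library below all 7 control libraries, where 3.50% of 18123 genes did. In the 3 embryos that gave cells to both groups, 56 of the 57 were lower in the Smg6-iKO cells of each embryo, where 25.7% of genes were. The exception was Kif15, which differed by 0.05 on the log2 scale in embryo SMH_128, -0.30 in embryo SMH_132 and -0.13 in embryo SMH_133. The median difference over the members was -0.32 in embryo SMH_128, -0.45 in embryo SMH_132 and -0.42 in embryo SMH_133.

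The treated and untreated controls overlapped in each of these genes. Of the 57, 0 were called in either direction between Ctr + 4-OHT and Ctr by edgeR, where 0.221% of 17665 genes were, and 0 by DESeq2 or limma-voom. At an unadjusted p under 0.05 there was 1, Kif20a at -0.21 ± 0.09 (SE), where 8.28% of genes passed. In 0 of the 57 did the libraries of both control groups fall apart without overlap, where 8.66% of genes did. The median difference was -0.04, and it was -0.12 without Ctr + 4-OHT embryo SMH_129 and 0.01 without embryo SMH_125. Fitted levels were lower in Ctr + 4-OHT for 41 of the 57 genes, for 54 without embryo SMH_129 and for 24 without embryo SMH_125. The mean log2 CPM of the members was 6.27, 6.41 and 6.33 in the other treated libraries, below every Ctr library, and 6.64 in that of SMH_129, above them.

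**Figure D2:**
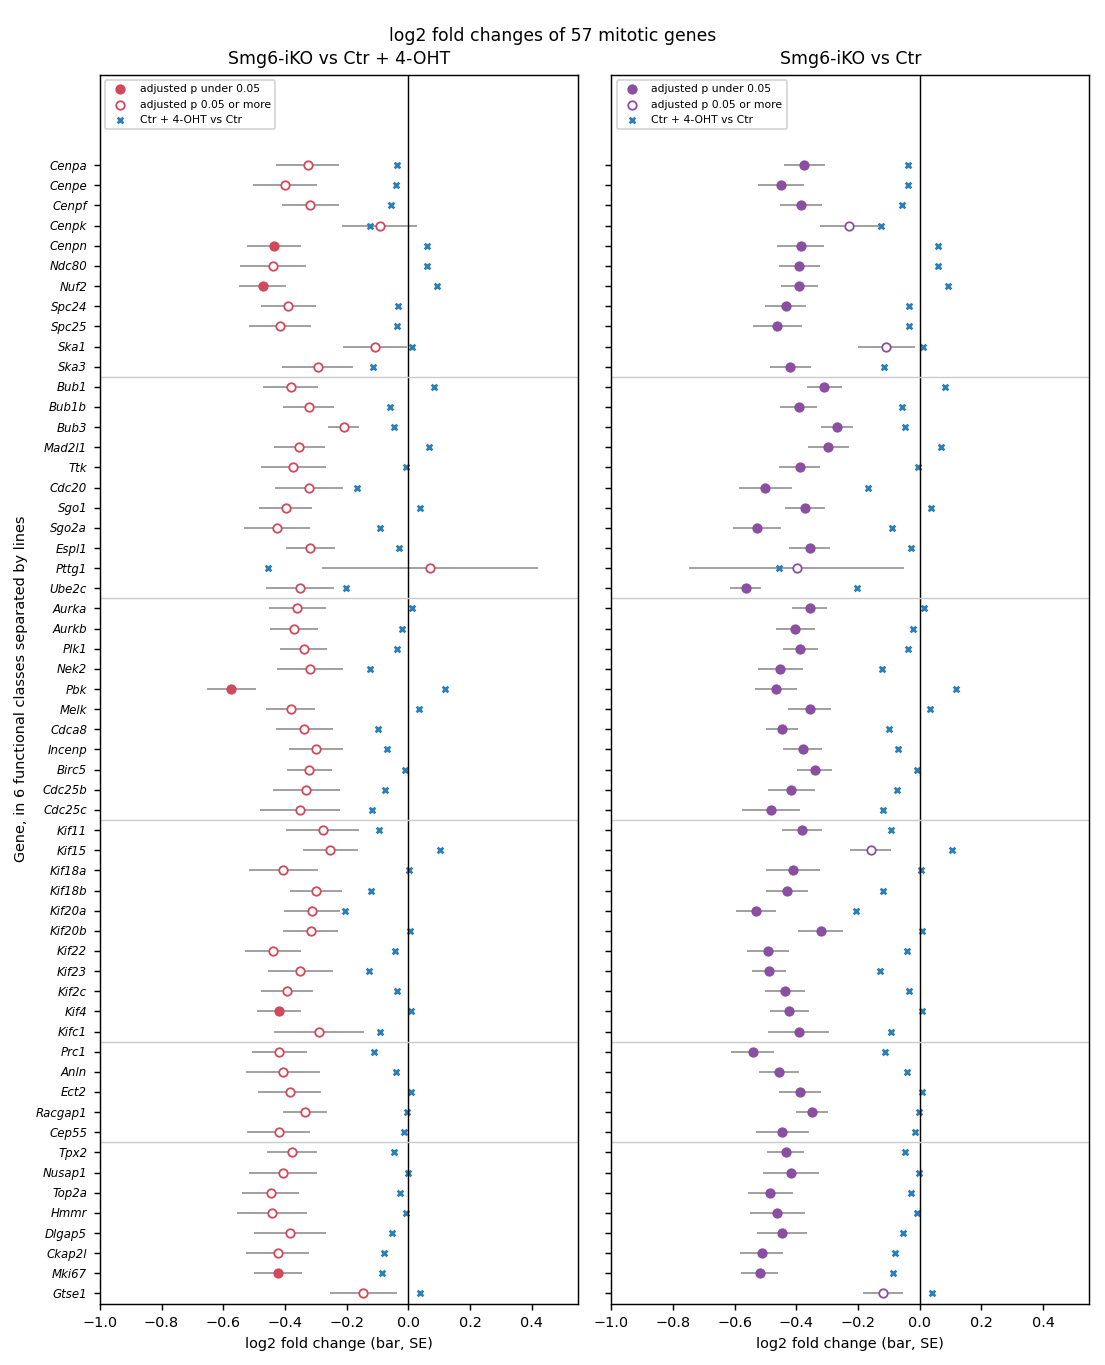
log2 fold change of each of the 57 genes (bars, SE) in Smg6-iKO against Ctr + 4-OHT (left) and against Ctr (right); filled circles passed an adjusted p of 0.05, open circles did not, and blue crosses give Ctr + 4-OHT against Ctr. The circles lie to the left of 0 for 56 genes on the left and for 57 on the right, with 5 and 52 filled, while most crosses lie near 0.

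Kinetochore genes had a median log2 fold change of -0.39 against both controls, with 2 of 11 called lower against Ctr + 4-OHT and 9 of 11 against Ctr. Nuf2, a subunit of the NDC80 complex that grips the microtubule end, was at 54.5, 58.7 and 55.6 CPM in Ctr (embryos SMH_128, SMH_132 and SMH_133), 57.5, 54.1, 67.4 and 61.1 CPM in Ctr + 4-OHT (embryos SMH_125, SMH_126, SMH_129 and SMH_131) and 43.1, 45.7, 42.01 and 40.98 CPM in Smg6-iKO (embryos SMH_127, SMH_128, SMH_132 and SMH_133); values below keep this order. Every Smg6-iKO library was below every control library. Nuf2 fell by 27.9% against Ctr + 4-OHT (log2 fold change -0.47 ± 0.08 (SE), adjusted p = 0.0181) and fell by 23.7% against Ctr (-0.39 ± 0.06 (SE), adjusted p = 0.00461). The other 3 subunits of that complex, Ndc80, Spc24 and Spc25, had log2 fold changes of -0.39, -0.43 and -0.46 against Ctr and all passed. Cenpn, which recognises the CENP-A nucleosome, was at 21.8, 23.1 and 23.95 CPM in Ctr, 22.6, 21.9, 27.6 and 23.6 CPM in Ctr + 4-OHT and 16.04, 18.2, 17.4 and 18.6 CPM in Smg6-iKO. Smg6-iKO did not overlap with either control group, and the difference was -0.44 ± 0.09 (SE) against Ctr + 4-OHT (adjusted p = 0.0469) and -0.39 ± 0.07 (SE) against Ctr (adjusted p = 0.0131). Cenpa, the centromeric histone H3 variant, Cenpe, a kinetochore motor, Cenpf, a large outer kinetochore protein, and Ska3 of the microtubule-binding SKA complex passed against Ctr, with log2 fold changes from -0.45 (Cenpe) to -0.37 (Cenpa).

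Cenpk, a subunit of the inner kinetochore network, was the kinetochore gene with the smallest difference against Ctr + 4-OHT. It was at 11.9, 14.96 and 13.01 CPM in Ctr, 10.98, 9.88, 14.6 and 13.3 CPM in Ctr + 4-OHT and 11.1, 11.7, 11.9 and 10.8 CPM in Smg6-iKO, and the last overlapped with the treated controls. Its log2 fold changes were -0.09 ± 0.12 (SE) (adjusted p = 0.756) and -0.23 ± 0.10 (SE) (adjusted p = 0.155). Ska1, a partner of Ska3, did not pass either, at -0.11 ± 0.10 (SE) and -0.11 ± 0.09 (SE). Per kilobase of exon, Cenpk at 2.33 CPM and Ska1 at 3.94 CPM had the lowest levels of the 57 genes, and Top2a at 103 CPM and Mki67 at 76.1 CPM the highest.

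Checkpoint and sister separation genes had medians of -0.35 and -0.39, with 0 of 11 called against Ctr + 4-OHT and 10 of 11 against Ctr. At an unadjusted p under 0.05, 10 of the 11 were lower against Ctr + 4-OHT, the DESeq2 Wald test called 9 and limma-voom 0. Sgo2a, a shugoshin that protects centromeric cohesin, was at 104, 105 and 96.4 CPM in Ctr, 88.5, 95.7, 116 and 83.1 CPM in Ctr + 4-OHT and 69.2, 81.4, 68.9 and 63.8 CPM in Smg6-iKO. It was the lowest of its class against Ctr + 4-OHT, at -0.43 ± 0.11 (SE) (adjusted p = 0.0921), and fell by 30.6% against Ctr (-0.53 ± 0.08 (SE), adjusted p = 0.00452). Sgo1, the other shugoshin, was at 41.5, 42.8 and 39.7 CPM in Ctr, 37.6, 41.5, 48.7 and 41.7 CPM in Ctr + 4-OHT and 31.2, 34.5, 29.6 and 32.3 CPM in Smg6-iKO, which again did not overlap with the controls. Its differences were -0.40 ± 0.08 (SE) (adjusted p = 0.0566) and -0.37 ± 0.06 (SE) (adjusted p = 0.00814). The largest fall in the class against Ctr was that of Ube2c, the ubiquitin-conjugating enzyme of the anaphase-promoting complex, at -0.56 ± 0.05 (SE) (adjusted p = 0.000296), which fell by 32.4%. Cdc20, which activates that complex, was at -0.50. The checkpoint genes Bub1, Bub1b, Bub3, Mad2l1 and Ttk and the separase gene Espl1 passed against Ctr with log2 fold changes between -0.39 (Bub1b) and -0.27 (Bub3).

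Pttg1, which encodes securin, the inhibitor of separase, varied widely within each group. It was at 46.4, 42.3 and 15.5 CPM in Ctr, 13.8, 35.3, 16.2 and 36.2 CPM in Ctr + 4-OHT and 23.4, 36.7, 31.2 and 14.6 CPM in Smg6-iKO. The low values were those of embryo SMH_133, in both its untreated and its Smg6-iKO cells, and of embryos SMH_125 and SMH_129, whereas embryos SMH_128 and SMH_132 were high in both groups. Without the embryo block the fitted differences were 0.07 ± 0.35 (SE) against Ctr + 4-OHT (adjusted p = 0.943) and -0.40 ± 0.35 (SE) against Ctr (adjusted p = 0.503), with the largest SE of the 57 genes. Within embryos the Smg6-iKO cells were lower by -0.34 in embryo SMH_128, -0.44 in embryo SMH_132 and -0.08 in embryo SMH_133 on the log2 scale. With the embryo as a block Pttg1 was called lower against Ctr, as given above.

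Mitotic kinases, the passenger complex and CDC25 phosphatases had medians of -0.34 and -0.40, with 1 of 11 called against Ctr + 4-OHT and 11 of 11 against Ctr. Pbk, a kinase active in mitosis, had the largest difference of the 57 against Ctr + 4-OHT. It was at 81.7, 79.1 and 80.7 CPM in Ctr, 83.5, 80.1, 97.9 and 88.1 CPM in Ctr + 4-OHT and 58.2, 65.02, 53.6 and 56.5 CPM in Smg6-iKO, with every Smg6-iKO library at or below 65.02 CPM and every control library above 79 CPM. It fell by 32.8% against Ctr + 4-OHT (-0.57 ± 0.08 (SE), adjusted p = 0.00882) and fell by 27.5% against Ctr (-0.46 ± 0.07 (SE), adjusted p = 0.00432). Aurkb, the kinase of the chromosomal passenger complex that corrects faulty attachments, was at 100.03, 91.1 and 88.9 CPM in Ctr, 85.4, 89.3, 107 and 86.4 CPM in Ctr + 4-OHT and 66.7, 75.8, 69.3 and 70.4 CPM in Smg6-iKO. Incenp, its scaffold, was at 108, 103 and 107 CPM in Ctr, 100.1, 99.2, 117 and 87.8 CPM in Ctr + 4-OHT and 73.03, 85.6, 83.4 and 83.7 CPM in Smg6-iKO. Neither overlapped between Smg6-iKO and controls, and against Ctr Aurkb fell by 24.4% (adjusted p = 0.00582) and Incenp fell by 23.1% (adjusted p = 0.00692). With Birc5 (survivin, -0.34) and Cdca8 (borealin, -0.45), all 4 subunits of the passenger complex were lower than in Ctr, and against Ctr + 4-OHT the adjusted p-values of the 4 were between 0.0545 and 0.126.

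Melk, a kinase of the AMPK-related family, was at 48.4, 50.7 and 47.6 CPM in Ctr, 48.9, 45.03, 53.8 and 52.8 CPM in Ctr + 4-OHT and 36.1, 42.9, 35.8 and 38.03 CPM in Smg6-iKO, the last without overlap with the controls. Its differences were -0.38 ± 0.08 (SE) (adjusted p = 0.0532) and -0.36 ± 0.07 (SE) (adjusted p = 0.0136). Aurka, which acts at spindle poles, Plk1, which works from mitotic entry to cytokinesis, and Nek2, which splits the centrosomes, fell against Ctr with log2 fold changes of -0.36, -0.39 and -0.45. Cdc25b and Cdc25c, the phosphatases that activate CDK1, were at -0.42 and -0.48 and passed, while both overlapped with the treated controls.

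Mitotic kinesins had medians of -0.32 and -0.42, with 1 of 11 called against Ctr + 4-OHT and 10 of 11 against Ctr. Kif4, a chromokinesin that also shapes the central spindle, was at 131.1, 134 and 129.0 CPM in Ctr, 125.4, 125.9, 147 and 128.8 CPM in Ctr + 4-OHT and 92.1, 109, 95.2 and 95.4 CPM in Smg6-iKO. It fell by 25.2% against Ctr + 4-OHT (-0.42 ± 0.07 (SE), adjusted p = 0.0243) and fell by 25.4% against Ctr (-0.42 ± 0.06 (SE), adjusted p = 0.00439). A transcribed processed pseudogene, Kif4-ps, is annotated on chromosome 12, and a processed pseudogene, Kif22-ps, on chromosome 1; reads that fit several places were not counted, so both levels are uncertain. Kif22, another chromokinesin, was at 114, 105 and 109 CPM in Ctr, 96.8, 104, 124.9 and 98.1 CPM in Ctr + 4-OHT and 72.9, 86.8, 77.5 and 73.7 CPM in Smg6-iKO. Smg6-iKO did not overlap with either control group, with differences of -0.44 ± 0.09 (SE) (adjusted p = 0.0506) and -0.49 ± 0.07 (SE) (adjusted p = 0.00342). The largest fall against Ctr was that of Kif20a, a motor of the central spindle, at -0.53 ± 0.06 (SE) (adjusted p = 0.00199). Kif20a is also the gene with the largest difference between the controls in this class, and its Smg6-iKO libraries (91.8, 112, 102 and 101 CPM) were below its Ctr + 4-OHT libraries (113, 132.4, 148 and 115 CPM) by less than below its Ctr libraries (151, 143 and 146 CPM).

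Kif15, which can stand in for Kif11 in keeping the poles apart, was the kinesin with the smallest difference. It was at 95.1, 106 and 99.8 CPM in Ctr, 97.7, 100.4, 127.6 and 106 CPM in Ctr + 4-OHT and 83.9, 98.4, 86.5 and 91.03 CPM in Smg6-iKO, and the Smg6-iKO library of embryo SMH_128 lay within the range of the controls. Its log2 fold changes of -0.25 ± 0.09 (SE) and -0.16 ± 0.07 (SE) did not pass (adjusted p = 0.187 and 0.157). Kif11 itself, the motor that separates the poles, fell against Ctr by 23.3% (adjusted p = 0.00806). Kif18a and Kif18b, which limit microtubule length, Kif2c, a depolymerase, Kifc1, a minus-end motor, Kif20b and Kif23, both of cytokinesis, passed against Ctr with log2 fold changes between -0.49 (Kif23) and -0.32 (Kif20b).

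Cytokinesis genes had medians of -0.41 and -0.45, with 0 of 5 called against Ctr + 4-OHT and 5 of 5 against Ctr, and all 5 were lower at an unadjusted p under 0.05 against Ctr + 4-OHT, where the DESeq2 Wald test called 5 and limma-voom 0. Every Smg6-iKO library was below every control library for each of the 5. Cep55, which recruits the abscission machinery to the midbody, was at 53.7, 51.04 and 46.6 CPM in Ctr, 45.00, 49.4, 58.9 and 46.4 CPM in Ctr + 4-OHT and 34.8, 43.1, 36.3 and 34.01 CPM in Smg6-iKO. Its differences were -0.42 ± 0.10 (SE) (adjusted p = 0.083) and -0.45 ± 0.09 (SE) (adjusted p = 0.0128). Racgap1, a subunit of centralspindlin with Kif23, was at 188, 187 and 189 CPM in Ctr, 169, 186, 213 and 182 CPM in Ctr + 4-OHT and 141, 155, 145 and 151 CPM in Smg6-iKO, and it fell by 21.4% against Ctr (adjusted p = 0.00448). Prc1, which bundles the antiparallel microtubules of the central spindle, had the largest fall of the class against Ctr, where it fell by 31.3% (-0.54 ± 0.07 (SE), adjusted p = 0.00268). Anln, the scaffold of the contractile ring, and Ect2, the exchange factor that activates RhoA there, were at -0.46 and -0.39.

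Spindle assembly and mitotic chromosome genes had medians of -0.41 and -0.45, with 1 of 8 called against Ctr + 4-OHT and 7 of 8 against Ctr. Mki67, the source of the proliferation antigen Ki-67 that coats mitotic chromosomes, was at 873, 912 and 857 CPM in Ctr, 765, 804, 941 and 809 CPM in Ctr + 4-OHT and 619, 663, 605 and 570.4 CPM in Smg6-iKO. It fell by 25.4% against Ctr + 4-OHT (-0.42 ± 0.08 (SE), adjusted p = 0.0358) and fell by 30.2% against Ctr (-0.52 ± 0.06 (SE), adjusted p = 0.00158). Top2a, the topoisomerase that untangles sister chromatids, was at 1074, 1072 and 996 CPM in Ctr, 963, 995, 1207 and 946 CPM in Ctr + 4-OHT and 710.3, 849, 715 and 720.5 CPM in Smg6-iKO. No Smg6-iKO library of either gene reached a control library, and Top2a fell by 28.5% against Ctr (adjusted p = 0.00439) with an adjusted p of 0.0545 against Ctr + 4-OHT. Tpx2, which starts microtubule growth near chromatin, Nusap1, Hmmr, Dlgap5 and Ckap2l, which bind and organise spindle microtubules, passed against Ctr with log2 fold changes between -0.51 (Ckap2l) and -0.42 (Nusap1). Gtse1, a microtubule-associated protein expressed in G2 and S phase, was at 70.8, 69.8 and 67.2 CPM in Ctr, 59.1, 72.8, 86.4 and 66.2 CPM in Ctr + 4-OHT and 57.3, 66.6, 66.9 and 64.4 CPM in Smg6-iKO. The Smg6-iKO values lay below each Ctr library but overlapped with the treated controls, and neither difference passed (-0.15 ± 0.11 (SE), adjusted p = 0.539, and -0.12 ± 0.07 (SE), adjusted p = 0.279).

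**Figure D3:**
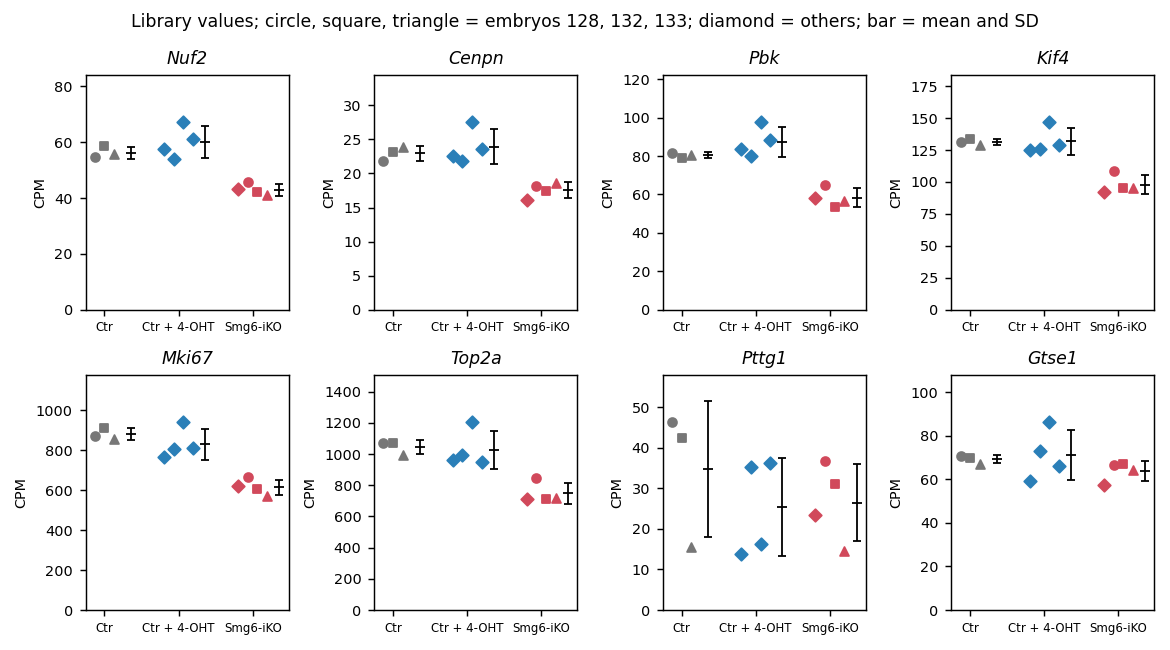
CPM of 8 genes by group, with circles, squares and triangles for embryos SMH_128, SMH_132 and SMH_133, diamonds for the other embryos, and mean and SD as black bars (n = 3, 4 and 4). For Nuf2, Cenpn, Pbk, Kif4, Mki67 and Top2a every red Smg6-iKO point lies below every control point, whereas Gtse1 overlaps and Pttg1 is low in both triangles (embryo SMH_133).

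Genes of the same machines that are outside the set had medians closer to 0. Among all genes tested, 0.416% were called lower against Ctr + 4-OHT and 4.98% against Ctr. Of 30 other kinetochore genes, 1 was called lower against Ctr + 4-OHT (Oip5, which helps to load CENP-A, at -0.50 with edgeR adjusted p = 0.034) and 11 against Ctr, with medians of -0.20 and -0.23. Of 19 condensin and cohesin genes, 2 were called against Ctr + 4-OHT (Smc2 at -0.39 and Ncapg2 at -0.33, both of condensin) and 14 against Ctr, with medians of -0.22 and -0.29. Of 15 genes of the anaphase-promoting complex (core subunits and the co-activator gene Fzr1), 0 and 2 were called lower (Anapc13 at -0.34 and Fzr1 at -0.24 against Ctr, list medians -0.10 and -0.08), and of 17 genes of the gamma-tubulin ring and augmin, 0 and 0 (medians -0.09 and -0.11). Where edgeR called 0 against Ctr + 4-OHT, 1 of the 15 and 2 of the 17 were lower at an unadjusted p under 0.05, where 7.67% of all genes were. Against Ctr 6 of the 17 were lower and 1 higher at that level, where 13.3% and 13.6% of all genes were. DESeq2 called 0 of the 15 against Ctr + 4-OHT, and 1 of the 17 in either comparison. With the embryo as a block against Ctr, 15 of the 30 other kinetochore genes were called lower and 1 higher (Nsl1, at 0.26), where 11.2% and 10.3% of all genes were. Of the 17, Nedd1 was called lower (-0.26) and Tubgcp6 higher (0.19) with the block. Of 19 non-mitotic kinesins, 0 were called against Ctr + 4-OHT by edgeR, DESeq2 or limma-voom. At an unadjusted p under 0.05, 1 was lower there, where 7.67% of all genes were. Against Ctr 1 was called lower (Kif21a at -0.31), or 5.26%, where 4.98% of all genes were. Against Ctr 3 were called higher (Kif17 at 0.51, Kif26b at 0.46 and Kif5a at 0.31), where 4.27% of all genes were. The medians of this list were 0.00 and 0.01.

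**Figure D4:**
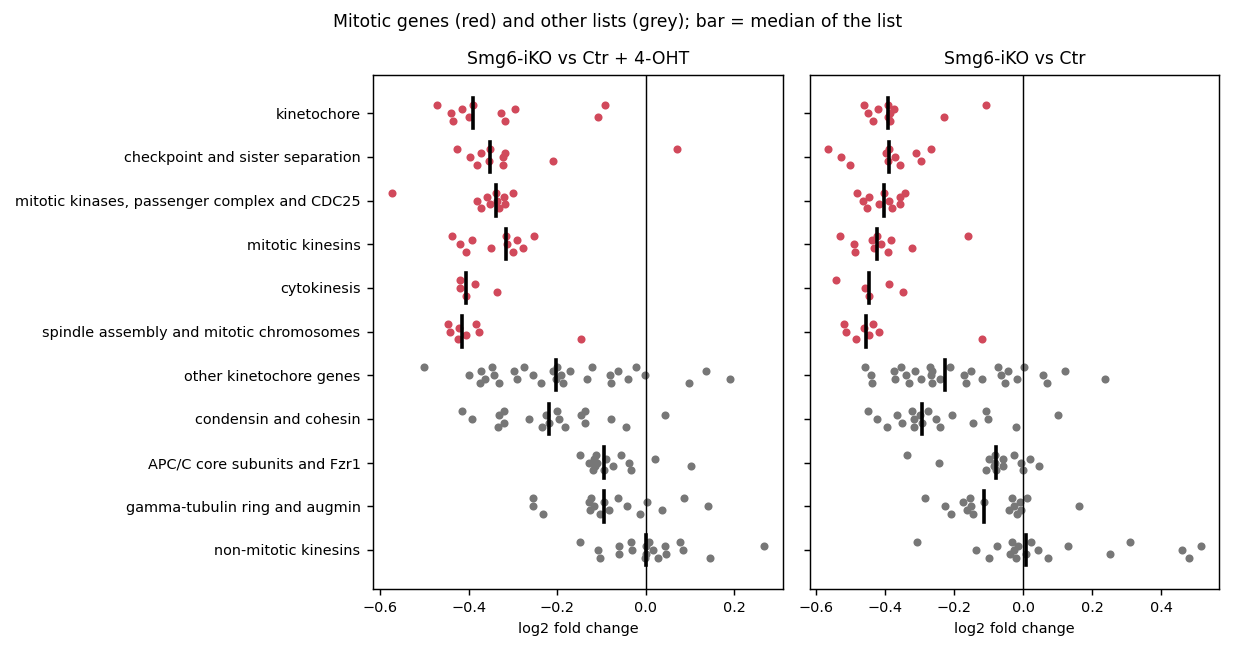
log2 fold change of every tested gene (dots) in the 6 classes of the set (red) and in 5 other gene lists (grey), for Smg6-iKO against Ctr + 4-OHT (left) and against Ctr (right), with the median of each list as a black bar. The medians of the red classes lie between -0.45 and -0.32, those of the 5 grey lists between -0.29 and 0.01.

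Some markers of progenitors, neurons and glia also differed between Smg6-iKO and Ctr. Among 12 neural progenitor markers, 7 were called lower and 0 higher in Smg6-iKO against Ctr (median -0.29), where 4.98% of all genes were called lower. With the embryo as a block 8 were lower, where 11.2% of all genes were. Against Ctr + 4-OHT 0 of the 12 were called (median -0.14). At an unadjusted p under 0.05, 3 were lower there, where 7.67% of all genes were, and DESeq2 called 1 lower, where it called 3.39%. Of the 11 neuron markers, 1 was called higher against Ctr (Nefl, list median 0.28), or 6 with the embryo as a block and 6 by DESeq2, where 4.27%, 10.3% and 7.04% of all genes were called higher, and 0 against Ctr + 4-OHT (median 0.07, with 0 at an unadjusted p under 0.05 and 0 by DESeq2). The summed CPM of the neuron markers ran from 2050 to 2303 in Ctr, from 1869 to 3072 in Ctr + 4-OHT and from 2392 to 2787 in Smg6-iKO, and those of the progenitor markers from 5425 to 5677, from 4751 to 5888 and from 4665 to 5259. No marker of either list was at 0 in any library. Between Ctr + 4-OHT and Ctr the progenitor markers had a median of -0.25 and the neuron markers 0.18, with 0 called by edgeR, DESeq2 or limma-voom, and 3 progenitor and 0 neuron markers were past an unadjusted p of 0.05. Of 6 astrocyte markers, Gfap was called higher against Ctr (log2 fold change 1.33), and with the block Gfap and S100b were higher and Gja1 and Slc1a2 lower. Their summed CPM ran from 739 to 876 in Ctr, from 751 to 810.5 in Ctr + 4-OHT and from 692 to 842 in Smg6-iKO. Of 6 oligodendrocyte lineage markers tested, 0 were called against Ctr (1 higher at an unadjusted p under 0.05, 0 of the 5 to which DESeq2 gave an adjusted p) and 3 were higher with the block, with sums from 274 to 312, from 253 to 399 and from 235 to 320 CPM. Mog was at 0 in 7 libraries. Endothelial markers had a median of 0.60 against Ctr over 5 genes, and 0.31 with the block, with 0 called by edgeR or with the block (1 higher at an unadjusted p under 0.05). DESeq2 gave an adjusted p to only 2 endothelial markers and called 0. The sums of the endothelial markers did not exceed 8.65 CPM in any library. Of 6 mesenchymal markers (median 0.70 against Ctr, and 0.004 with the block), 0 were called (1 higher at an unadjusted p under 0.05, 0 by DESeq2), while with the block Col1a1 was higher and Pdgfrb lower, and their sums ran from 383 to 548, from 315 to 909.5 and from 282 to 1538 CPM, the highest in Smg6-iKO embryo SMH_127. Against Ctr + 4-OHT 0 genes of these 4 lists were called by edgeR or DESeq2, and 1, of the endothelial list, was higher at an unadjusted p under 0.05. DESeq2 again gave an adjusted p to only 2 endothelial and 5 oligodendrocyte lineage markers. Within Ctr + 4-OHT the order of the set over embryos (SMH_129, SMH_126, SMH_131, SMH_125 from high to low) was the reverse of the order of the neuron markers.

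The mean log2 CPM of the neuron markers ran from 6.45 to 6.72 in Ctr, from 6.29 to 7.12 in Ctr + 4-OHT and from 6.77 to 7.08 in Smg6-iKO. The mean log2 CPM over the members less that over the progenitor markers was -1.0 ± 0.05 (SD, n = 4) for Smg6-iKO, -0.79 ± 0.08 (SD, n = 4) for Ctr + 4-OHT and -0.95 ± 0.05 (SD, n = 3) for Ctr. On that scale Smg6-iKO (-1.06 to -0.94) lay apart from Ctr + 4-OHT (-0.90 to -0.71) but overlapped with Ctr (-1.0 to -0.90). With the neuron marker mean as a covariate, a fit chosen after seeing the data, 47 of the 57 genes were called lower against Ctr + 4-OHT (median -0.29), where 2.08% of all genes were. Against Ctr 4 were (median -0.33), where 0.345% of all genes were. With that covariate 898 genes of all were called in either direction in the comparison with treated controls (206 without it), and 130 in that with untreated controls (1663 without it). The part of cell composition in the result was not tested.

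**Figure D5:**
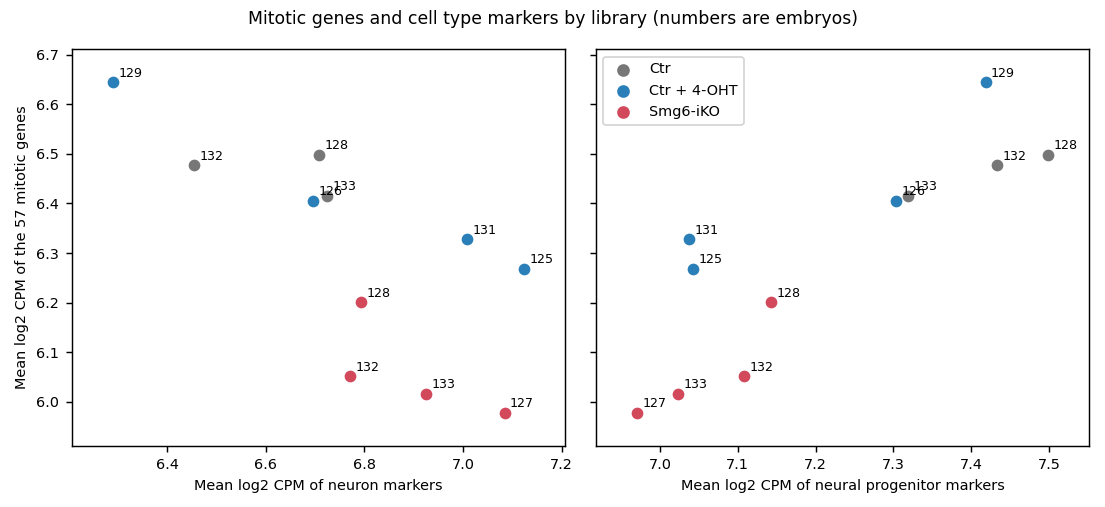
Mean log2 CPM of the 57 mitotic genes in each of the 11 libraries (points, coloured by group, numbered by embryo) against the mean log2 CPM of 11 neuron markers (left) and of 12 neural progenitor markers (right). The 4 Smg6-iKO points lie lowest on the vertical axis, between 5.98 and 6.20, and the control points between 6.27 and 6.64.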

How the data were processed

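Total RNA depleted of ribosomal RNA was sequenced from 11 NPC cultures with a stranded kit, in single reads. Per the labels and the file headers the authors used bcl2fastq 1.8.4, STAR 2.5.4b and featureCounts 1.5.0 on GRCm38, and the deposited values are raw read counts per gene (Ensembl 92) with reads of several positions left out. RiboZero depletion keeps unspliced RNA, so changes in gene counts need not be changes in mature mRNA. The mitosis genes and all gene lists were chosen with earlier results of these data known. Symbols came from GENCODE M21 (GRCm38). Here edgeR 4.0.16 (R 4.3.3) fitted each comparison to its own groups (filterByExpr, TMM, quasi-likelihood test, two-sided, Benjamini-Hochberg adjustment over all genes tested, threshold 0.05). SE was taken as the size of the log2 difference over the root of the F statistic. CPM used TMM over all 11 libraries, and log2 CPM a prior count of 2. DESeq2 1.42.0 and limma 3.58.1 (voom) were alternatives. Scripts were tested on simulated data. Genes written out library by library were, in each class, the lowest and the highest log2 fold change against Ctr + 4-OHT, plus the 10 with the lowest p over the set; Kif20a was added after its values were seen. Further genes were named for their class or outcome.

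Embryos SMH_128, SMH_132 and SMH_133 link Ctr and Smg6-iKO as cells of the same animal. After removal of the group means, libraries of the same embryo correlated over genes 0.33 to 0.43 (3 pairs) and those of different embryos at -0.13 on average (9 pairs). In the fit with the embryo as a block, the Smg6-iKO library of embryo SMH_127 does not contribute to the difference. Cultures of 1 embryo each were the replicates. Exons of 16 members overlap a gene on the opposite strand and those of 1 (Top2a) a gene on the same strand, by 1.35% of its exon bases. Counting was reverse-stranded per the file headers.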

Additional observations from a re-analysis of the deposited data

Results flagged for a closer look

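Each member was examined in the groups of 4 libraries for a single library far from the other 3, by the ratio of the gap to the range against Dixon's critical value for 4 libraries. Of 114 such groups 10 exceeded it. Chance flags about 1 in 20 groups, but these groups share the same libraries and are not independent, so the count cannot be set against that rate. In Smg6-iKO the library of embryo SMH_128 stood above the other 3 for Ndc80 (35.8 CPM), Bub1 (85.9 CPM), Birc5 (45.9 CPM), Kif11 (229 CPM), Kif18a (79.4 CPM) and Top2a (849 CPM). The library of embryo SMH_127 stood below the others for Kif18b (49.9 CPM). In Ctr + 4-OHT the library of embryo SMH_129 stood above the others for Kif2c (103 CPM), Kif4 (147 CPM) and Tpx2 (241 CPM). These are the libraries with the highest mean over the set in their groups, except that of embryo SMH_127, which had the lowest.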

How the results depend on the processing

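The median over the members kept its direction in both Smg6-iKO comparisons under each alternative run, and no member was called higher; between the control groups it was -0.04, -0.12 to 0.01 when 1 library was left out and 0.02 with the neuron marker mean as a covariate. Members called lower against Ctr + 4-OHT numbered 5, and 8 with DESeq2 size factors in edgeR, 38 with no filter on low counts, 45 with the DESeq2 Wald test, 31 with all 11 libraries in one fit, 13 with a gene length correction, 47 with the neuron marker mean as a covariate (chosen after seeing the data) and 1 to 7 when 1 library was left out (1 without Ctr + 4-OHT embryo SMH_131 or Smg6-iKO embryo SMH_127, SMH_132 or SMH_133). Their median was -0.41 to -0.27 with 1 library left out, the smallest without Ctr + 4-OHT embryo SMH_129. Against Ctr 52 members were called lower, 53 with the embryo as replicate block (median -0.38), 38 with all 11 libraries in one fit, 4 with the neuron covariate and 44 to 53 with 1 library left out (median -0.45 to -0.38). The covariate differs between Ctr and Smg6-iKO, and the cause of that loss was not tested. The 44 members with non-overlapping libraries numbered 37, and the 56 lower within all embryos 54, with upper-quartile scaling. With 1 library or embryo left out they numbered 44 to 51 and 56 to 57, which says nothing of stability, since leaving one out removes a condition. Medians of classes and other lists were not run under these alternatives, apart from the block.

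The median over all genes tested was 0.01 in both Smg6-iKO comparisons, and -0.06 against Ctr + 4-OHT and -0.08 against Ctr with the gene length correction. Over all genes tested, 206 were called against Ctr + 4-OHT (35.4% of them lower), and 237 (70.5% lower) with the gene length correction. Against Ctr 1663 were called (53.9% lower), and 2806 (85.8% lower) with that correction, 1783 (38.9% lower) with upper-quartile scaling. The members' median less that of all genes was -0.37 and -0.42 with the length correction. The number of all genes called against Ctr + 4-OHT was 418 with no filter, 873 with DESeq2, 484 with all libraries and 898 with the covariate, and against Ctr 2714, 2421, 796 and 130, and 3854 with the block. Between the control groups it was 39, and 198, 169, 60 and 141 under those alternatives. Counting error was largest for Ska1, with 244 counts in its lowest library.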
